A study of Homo sapiens with 4 samples.

Results

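Secreted angiogenesis factors are proteins that tumor cells release and that act on nearby blood and lymphatic vessels. The 8 described here, of 16834 genes in the deposited table, were APLN, FGFBP1, THBS1, VEGFA, VEGFB, VEGFC, PGF and ANGPTL4. They were taken by gene symbol from a list drawn up because several of them had lower reads with each drug and lower reads still with both, so they were chosen by their reads in the same comparisons described below, which are a description and carry no test. RNA was sequenced from MIA PaCa-2 cells, an established human pancreatic ductal adenocarcinoma (PDAC) line. Cells were left untreated as control, or received 1 µM of NBT (neobractatin, a plant compound), 5 µM of trametinib (which inhibits the MEK kinases), or the combination of both at these doses, each for 12 h. All were labelled wild type. Each condition was 1 library of 1 cell line, so the variation between cultures was not measured, and every interval below covers counting error only.

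New vessels form when endothelial cells respond to secreted ligands. VEGFA is the main such ligand and signals through the receptor KDR, whereas VEGFB and PGF bind FLT1, and VEGFC acts through FLT4 mainly on lymphatic vessels. Apelin, the product of APLN, signals through a G-protein-coupled receptor on endothelial cells, FGFBP1 is a carrier that releases fibroblast growth factors from the matrix, and THBS1 (thrombospondin-1) is a large matrix glycoprotein known as an inhibitor of vessel growth. ANGPTL4 inhibits lipoprotein lipase and is a known target of hypoxia and of PPAR receptors.

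The 4 libraries held 18776212 to 19614763 estimated reads, at which 3 reads, taken as the floor, correspond to 0.153 to 0.160 CPM (reads scaled to library size). A gene was called when the reads of a pair of libraries differed at an adjusted value of at most 0.05 (exact two-sided binomial test, Benjamini-Hochberg over all tested genes) and by at least 1 on the log2 scale. The test compares libraries, not conditions. Of 10 MAPK output genes, 10 were called lower with trametinib and 10 with the combination, beside 2.15% and 3.69% of all tested genes. With NBT 0 were called lower and 1 higher, beside 1.01% and 1.6%. The MAPK list was drawn up with earlier results of these data known, so these counts are no independent check of the treatments. The epithelial keratins KRT8 and KRT18 stood at 3799 and 3142 TPM (a level scaled to transcript length and library size) in the control, whereas the mesenchymal genes VIM and ZEB1 were low at 11.5 and 1.38 TPM. With the combination, KRT8 was at 1493 TPM and VIM at 26.4 TPM. In bulk RNA, fewer cells of a type and less RNA per cell cannot be told apart. The 8 endothelial markers summed to 19.5 to 24.7 TPM, most of it EGFL7, and CDH5 had 0 to 2 reads, CLDN5 0 to 3 and PECAM1 14 to 26. VWF had 3, 4, 25 and 6 reads in the control, NBT, trametinib and combination libraries and was called higher with trametinib, and ESAM had 33, 20, 14 and 16 and was called lower with trametinib and the combination. Of 6 fibroblast markers, 4 were in the table and summed to 0.510 to 1.90 TPM, and COL1A2 and PDGFRB had 0 to 2 reads. COL1A1 had 45, 27, 98 and 53 reads and was called higher with trametinib, and LUM had 5 reads with trametinib and 0 in the other libraries. Of 5 immune markers, 4 were in the table, and nearly all of their 97.1 to 140 TPM was CD68, while CD14 had 2 to 3 reads. CD3E had 0 reads in the control and under NBT, 55 under trametinib and 29 under both drugs. The part of these marker genes in the results was not tested. The cell line field of the labels is not the same for every library, and the name MIA PaCa-2 follows their titles. The keratin, VIM and ZEB1 levels were not compared with a reference for that line, so the identity of the cells was not tested.

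The promoters of APLN, FGFBP1 and THBS1 are shown because these genes were called lower in every treated library. Of the 8 genes, 7 were matched by symbol to RefSeq promoters, all but VEGFA. Sequences are from RefSeq (GRCh38.p14), read 5′ to 3′ on the strand of the gene, from 250 bases before the start site to 50 bases after it. They lie at chrX:129654907-129655206 (minus strand) for APLN, chr4:15938691-15938990 (minus strand) for FGFBP1 and chr15:39580829-39581128 (plus strand) for THBS1. Capitals mark matches to the motifs searched.
APLN: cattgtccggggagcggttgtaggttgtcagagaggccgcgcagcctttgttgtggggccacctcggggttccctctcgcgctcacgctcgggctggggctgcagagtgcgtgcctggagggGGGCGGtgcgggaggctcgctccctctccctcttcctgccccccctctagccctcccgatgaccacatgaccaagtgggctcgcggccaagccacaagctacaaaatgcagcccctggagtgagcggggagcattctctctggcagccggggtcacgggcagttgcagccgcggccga
FGFBP1: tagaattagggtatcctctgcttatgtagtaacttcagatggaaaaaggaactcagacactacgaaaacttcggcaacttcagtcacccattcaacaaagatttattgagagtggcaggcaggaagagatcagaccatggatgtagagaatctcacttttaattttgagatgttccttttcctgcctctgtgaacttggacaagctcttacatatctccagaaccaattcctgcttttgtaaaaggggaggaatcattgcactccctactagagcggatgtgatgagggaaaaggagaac
THBS1: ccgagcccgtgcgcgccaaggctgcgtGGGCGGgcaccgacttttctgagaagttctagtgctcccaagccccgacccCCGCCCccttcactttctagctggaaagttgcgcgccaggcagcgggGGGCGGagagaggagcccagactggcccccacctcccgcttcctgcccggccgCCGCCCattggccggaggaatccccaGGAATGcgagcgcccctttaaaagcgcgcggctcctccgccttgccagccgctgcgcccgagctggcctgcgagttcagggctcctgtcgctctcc

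The motifs, searched on both strands, were the hypoxia response element core ACGTG, the AP-1 site TGANTCA, the ATF4 composite element TGATGCA, the SP1 GC box GGGCGG, the TEAD site GGAATG and the ETS site CCGGAAG. The APLN promoter held 1 match, a GC box at position -128 from the start. The THBS1 promoter held 5, of which 4 were GC boxes and 1 was a TEAD site at position -46. No match was found in the FGFBP1 promoter, whose 42.0% of G and C bases lay below the median of 58.7% over 35116 promoters, against 68.0% for APLN and 70.0% for THBS1. Among all these promoters the GC box was in 45.0%, the TEAD site in 14.0%, the hypoxia core in 21.4%, the AP-1 site in 7.71%, the ETS site in 10.3% and the ATF4 element in 2.63%. The matches are a description of these letters and do not show binding.

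Among the vessel-promoting ligands, APLN (chromosome X, 129645259 to 129654956) had 251 reads in the control, 53 under NBT, 58 under trametinib and 8 under both drugs. Per length these were levels of 8.20, 1.60, 1.84 and 0.24 TPM. The single drugs left APLN at similar reads, and the combination left it lower than either. Its log2 fold change was -2.28 (95% counting interval -2.75 to -1.86) under NBT, -2.12 (-2.56 to -1.71) under trametinib and -4.95 (-6.26 to -4.03) under both drugs, which is 32.8-fold lower than control. The last value rests on 8 reads and was -4.35 with 5 reads added in place of 0.5.

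FGFBP1 (chromosome 4, 15935577 to 15938740), the carrier of fibroblast growth factors, had 1143 reads in the control, 195 under NBT, 267 under trametinib and 52 under both drugs, at levels of 91.0, 14.3, 20.7 and 3.86 TPM. As for APLN, whose single-drug intervals overlapped, both single drugs stood below control and the combination lowest. NBT was the lower of the single drugs for FGFBP1. The log2 fold changes were -2.60 (-2.83 to -2.38), -2.11 (-2.31 to -1.92) and -4.51 (-4.95 to -4.12) in the same order, and the last is 23.0-fold lower. Among 10251 genes with at least 100 control reads, FGFBP1 was the 3rd lowest with NBT and APLN the 5th, while with the combination APLN was the 5th and FGFBP1 the 7th. With trametinib alone they stood at places 60 and 58, so many more genes lay below them there.

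THBS1 (chromosome 15, 39581079 to 39599466), the vessel growth inhibitor, was the most abundant of the 8 per length in each library, at 636 TPM in the control, 257 under NBT, 172 under trametinib and 71.2 under both drugs. The estimated reads were 35644, 15574, 9858 and 4282. Unlike FGFBP1, THBS1 was lower with trametinib than with NBT. Its log2 fold change was -1.24 (-1.27 to -1.22) under NBT, -1.87 (-1.90 to -1.84) under trametinib and -3.12 (-3.17 to -3.07) under both drugs, or 8.70-fold lower. It was the only one of the 8 whose estimated counts were not whole numbers.

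**Figure D1:**
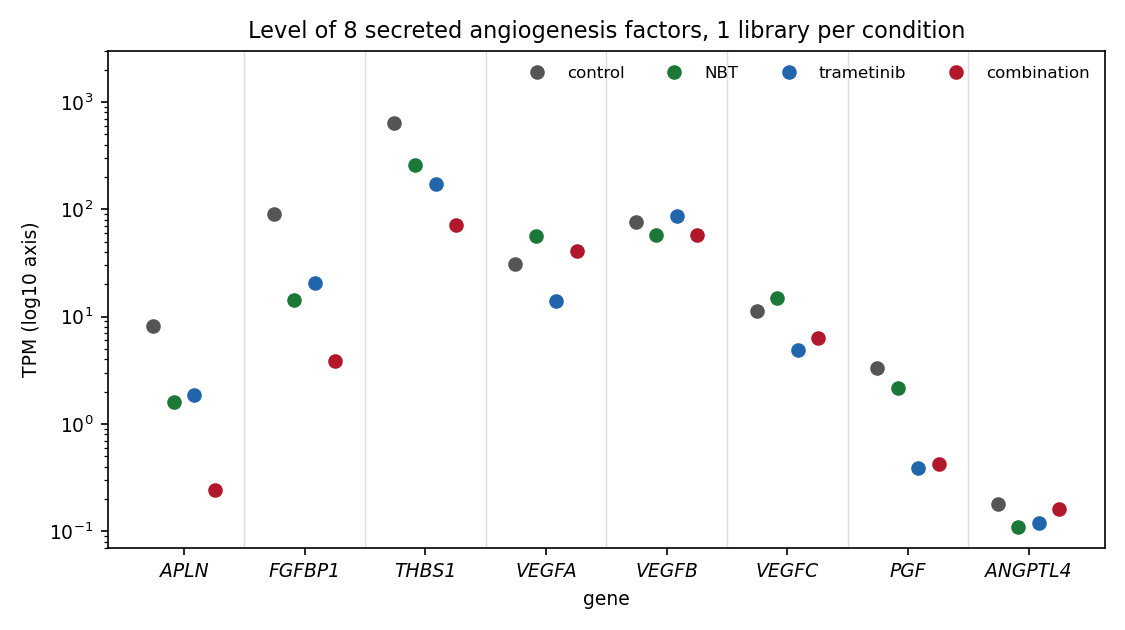
Level of each factor in TPM, on a log axis, in the 4 libraries, 1 point per library. APLN, FGFBP1 and THBS1 step down from control to the combination, whereas VEGFA is highest with NBT at 56.8 TPM and lowest with trametinib at 14.0 TPM.

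VEGFA (chromosome 6, 43770211 to 43786487) went apart from these 3 genes. It had 898 reads in the control, 1736 under NBT, 394 under trametinib and 1215 under both drugs, and levels of 30.9, 56.8, 14.0 and 40.9 TPM. The single drugs stood on opposite sides of the control, and the combination stood between NBT and the control. The log2 fold change was 0.90 (0.78 to 1.02) under NBT, -1.20 (-1.38 to -1.03) under trametinib and 0.37 (0.25 to 0.50) under both drugs. Against trametinib alone, the combination was 1.57 (1.41 to 1.74) higher on the log2 scale, and against NBT alone it was at -0.53 (-0.63 to -0.42).

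VEGFC (chromosome 4, 176683538 to 176792922), the lymphatic ligand, had 241, 342, 108 and 144 reads in the control, NBT, trametinib and combination libraries, at 11.3, 14.8, 4.93 and 6.30 TPM. As with VEGFA, the NBT library was the highest and the trametinib library the lowest, but the combination stayed below control. Its log2 fold changes were 0.45 (0.21 to 0.70), -1.17 (-1.51 to -0.84) and -0.80 (-1.11 to -0.50).

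VEGFB (chromosome 11, 64234584 to 64239264), a ligand of FLT1, had 1291, 1059, 1509 and 1052 reads in the same order, at 76.7, 57.9, 87.2 and 58.1 TPM. It varied least of the 7 factors above the floor, with log2 fold changes of -0.34 (-0.45 to -0.22), 0.21 (0.10 to 0.32) and -0.36 (-0.48 to -0.24). The combination differed from NBT by -0.02 (-0.15 to 0.10), an interval that includes no difference.

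PGF (chromosome 14, 74941830 to 74955764), the other ligand of FLT1, had 59 reads in the control, 41 under NBT, 7 under trametinib and 8 under both drugs, or 3.29, 2.18, 0.390 and 0.420 TPM. The libraries with trametinib were low and those without it were higher. Its log2 fold change was -0.57 (-1.19 to 0.02) under NBT, -3.00 (-4.46 to -1.96) under trametinib and -2.87 (-4.22 to -1.87) under both drugs. Between the combination and trametinib alone the difference of 0.13 (-1.52 to 1.84) was not detectable at this depth.

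ANGPTL4 (chromosome 19, 8364155 to 8374370) had 3, 2, 2 and 3 reads and levels of 0.110 to 0.180 TPM. These lie at or under the floor of 3 reads, so no fold change is given.

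By the limits on reads and log2 difference, 3 of the 8 factors were called lower with NBT (APLN, FGFBP1 and THBS1) and 0 higher, where 1.01% of 15888 tested genes were called lower and 1.6% higher. With trametinib, 6 were called lower, all but VEGFB and ANGPTL4, beside 2.15% of all genes called lower and 3.82% higher. With the combination, 4 were called lower (APLN, FGFBP1, THBS1 and PGF), beside 3.69% lower and 4.73% higher. Nothing is read from these counts, since the same contrasts chose the genes, and the 3 comparisons share the control library. The median log2 fold change of the 7 factors above the floor was -0.57, -1.87 and -2.87, against -0.01, 0.08 and 0.05 over all tested genes.

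Adding NBT to trametinib was compared directly. Relative to trametinib alone, APLN was at -2.83 (-4.19 to -1.83), FGFBP1 at -2.40 (-2.87 to -1.98) and THBS1 at -1.25 (-1.30 to -1.20) on the log2 scale. These 3 were called lower and VEGFA was called higher, beside 3.55% of all genes called lower and 2.56% higher. VEGFC differed by 0.36 (-0.00 to 0.74) and VEGFB by -0.57 (-0.69 to -0.46), neither past the limits.

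Adding trametinib to NBT gave a different set. Relative to NBT alone, APLN was at -2.67 (-4.03 to -1.66), PGF at -2.30 (-3.67 to -1.26), FGFBP1 at -1.91 (-2.39 to -1.47), THBS1 at -1.88 (-1.92 to -1.83) and VEGFC at -1.26 (-1.55 to -0.98). These 5 were called lower and 0 higher, beside 1.99% of all genes called lower and 2.38% higher.

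The calls depended on how much cultures of a condition are taken to vary, which these libraries cannot show. In the order NBT, trametinib and combination against control, then combination against trametinib and against NBT, an assumed coefficient of variation of 0.2 left 2, 4, 4, 3 and 4 factors called, beside 0.434%, 2.25%, 3.37%, 1.85% and 1.26% of all genes in either direction. At 0.4 these were 0, 0, 2, 0 and 0 factors beside 0.0252%, 0.136%, 0.314%, 0.0857% and 0.08%, and the 2 were APLN and FGFBP1. A log2 limit of 2 gave 2, 3, 4, 2 and 2 factors beside 0.73%, 2.17%, 2.47%, 1.54% and 1.54%, and no log2 limit gave 6, 7, 7, 5 and 6 factors beside 35.5%, 42.7%, 49.6%, 45.5% and 37.4%.

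**Figure D2:**
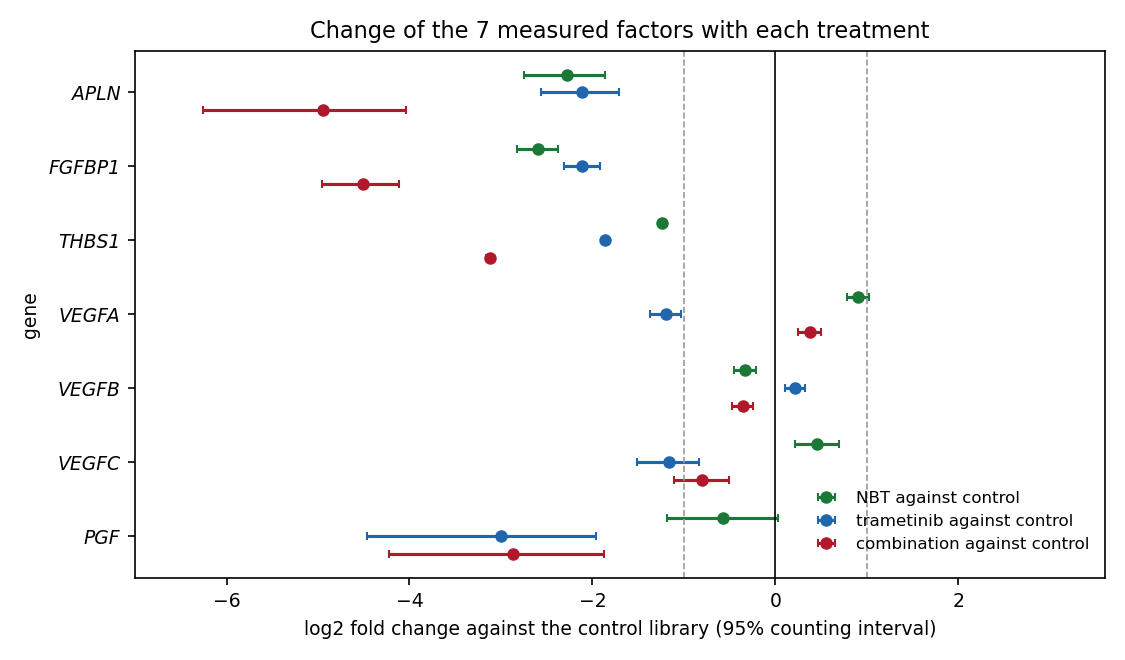
Log2 fold change of each factor above the floor against control, with 95% counting intervals that cover counting error only, for NBT, trametinib and the combination. VEGFA lies at 0.90 with NBT and at -1.20 with trametinib, and APLN, FGFBP1 and THBS1 lie lowest with the combination.

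Whether the changes with the single drugs add up on the log2 scale was asked next, as a description. For THBS1 the sum of the single-drug log2 fold changes was -3.11 and the measured value -3.12, a departure of -0.01 ± 0.03 (counting SE), so that 4307 reads were expected and 4282 were found. FGFBP1 departed by 0.20 ± 0.24 and APLN by -0.55 ± 0.57, with 45.7 and 12.4 reads expected against 52 and 8 found. The departures of these 3 genes were within about 1 counting SE of 0.

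VEGFA had the departure that was largest beside its counting error. Its sum was -0.30 and the measured value 0.37, a departure of 0.67 ± 0.10, with 762 reads expected and 1215 found. VEGFB departed by -0.23 ± 0.08 and VEGFC by -0.09 ± 0.22. PGF departed by 0.70 ± 0.78, with 5.19 reads expected and 8 found, which is too few to place it. None of the 7 departed by 1 or more, as 2.33% of 11367 genes with at least 50 reads in a library did, and the quartiles of those genes were -0.22 and 0.15.

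**Figure D3:**
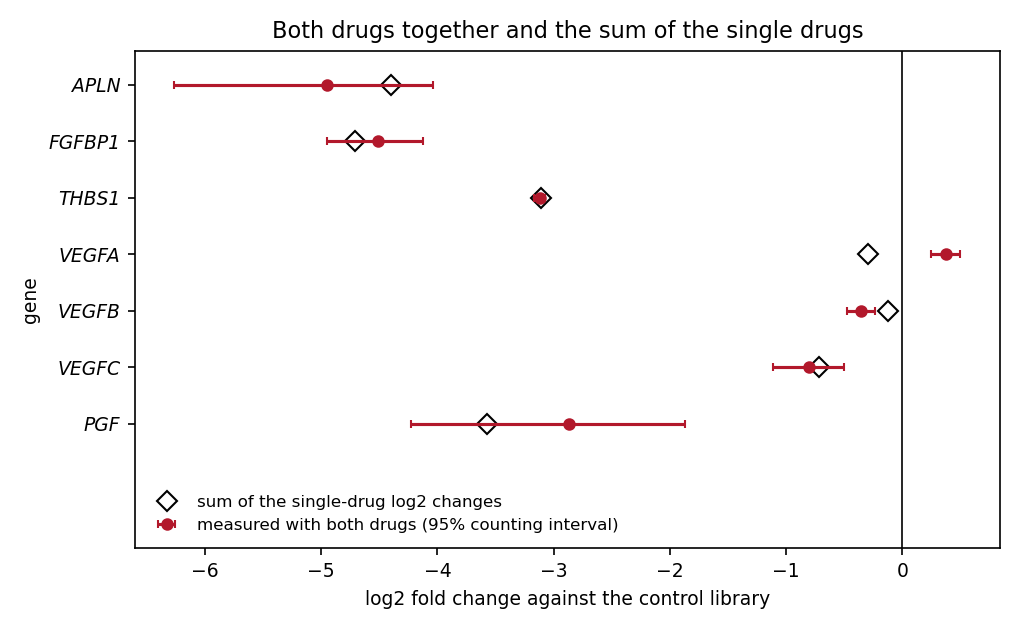
Measured log2 fold change of the combination, with counting intervals, beside the sum of the single-drug log2 fold changes, for the 7 factors above the floor. For THBS1 the measured value is -3.12 and the sum -3.11. For VEGFA the measured value is 0.37 and the sum -0.30, a departure of 0.67.

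The proportions of the factors to each other also differed between libraries. VEGFA, VEGFB, VEGFC and PGF together stood at 122 TPM in the control, 132 under NBT, 106 under trametinib and 106 under both drugs. VEGFA was 25.3% of this sum in the control, 43.1% under NBT, 13.1% under trametinib and 38.7% under both drugs, while VEGFB was 62.7%, 44.0%, 81.9% and 55.0%. VEGFB was thus the leading ligand of the family by RNA level in all 4 libraries, by a margin of under 1 percentage point with NBT. THBS1 stood at 20.6 TPM per TPM of VEGFA in the control, 4.53 under NBT, 12.3 under trametinib and 1.74 under both drugs. The inhibitor remained above VEGFA per length in every library. By TPM, THBS1 ranked 194th of all genes in the control and 2297th with the combination.

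The transcripts of VEGFA, which were not used to choose the genes, differ in exons 6 and 7, known to encode stretches that bind heparan sulfate. On GRCh38 these are chr6:43780732-43780803 (72 bases) and chr6:43781956-43782087 (132 bases). Of 9 listed transcripts, 6 hold both exons, 2 hold neither, and 1, NM_001287044.2, holds exon 7 without exon 6 and starts at an alternative first exon. No listed transcript that starts elsewhere holds exon 7 without exon 6. Reads of that exon pattern could thus be assigned only to NM_001287044.2, and its share does not measure use of its start. That transcript was assigned 13.96 TPM in the control, 31.3 under NBT, 8.85 under trametinib and 24.8 under both drugs, or 45.1%, 55.1%, 63.3% and 60.5% of the gene's TPM. Its share was higher in every treated library than in the control, including the trametinib library where the gene itself was lower.

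Transcripts with neither exon held 41.6% of VEGFA TPM in the control, 32.3% under NBT, 30.0% under trametinib and 31.6% under both drugs. Those with both exons held 13.3%, 12.5%, 6.79% and 7.89%. As shares of estimated reads, the transcripts with both exons were 15.8% (Clopper-Pearson 95% interval 13.5 to 18.4) in the control, 15.3% (13.7 to 17.1) under NBT, 8.56% (6.05 to 11.9) under trametinib and 9.88% (8.26 to 11.7) under both drugs. The libraries with trametinib were thus the low pair, and their intervals did not overlap those of the control and NBT. These intervals treat estimated reads as counted. Most reads fall in exons that the transcripts share and were divided by the authors' estimation, so the shares are estimates, and with 1 library per condition the difference has no replicate check.

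**Figure D4:**
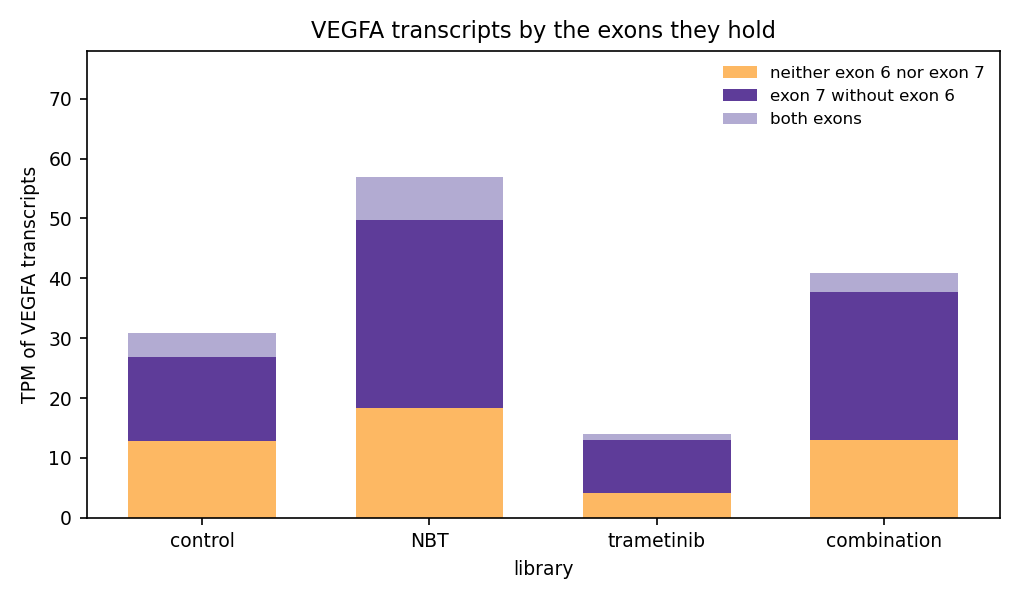
TPM of VEGFA transcripts with both exons 6 and 7, with exon 7 without exon 6 and with neither, stacked for each of the 4 libraries. As a share of the whole bar, the class with both exons is 13.3% in the control and 12.5% with NBT. It is 6.79% with trametinib and 7.89% with the combination.

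For THBS1, the predicted transcript XM_011521971.2 carried 88.7% to 89.9% of the gene's TPM in all 4 libraries, and the curated NM_003246.4 the rest. For VEGFB, NM_003377.5 carried 89.3% to 92.5%. The division of these genes among transcripts thus moved little while the level of THBS1 moved greatly. APLN, FGFBP1 and VEGFC had 1 listed transcript each, and the 7 to 59 reads of PGF were too few to divide.

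The genes with the most similar pattern were found by the Euclidean distance of the 3 log2 fold changes against control, over 10251 genes and 4 libraries. FGFBP1 was the nearest gene to APLN and APLN the nearest to FGFBP1, at a distance of 0.54. Both came from a list chosen by these same contrasts, so their nearness is partly set by that choice. The APLN value with the combination rests on 8 reads (-6.26 to -4.03). HAS3, a hyaluronan synthase, followed at 1.30 from APLN and 1.16 from FGFBP1, and then CCND1, the G1 cyclin D1. Nearest to THBS1 was F3, the tissue factor that starts blood coagulation, at 0.63, followed by ANKRD2 at 0.76 and SLC39A10, a zinc importer, at 0.84. F3 had 19490, 11305, 7099 and 2798 reads, the same order as THBS1.

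Nearest to VEGFA were SH2B3, a signalling adaptor, at 0.22, UAP1, an enzyme of UDP-N-acetylglucosamine synthesis, at 0.34 and ROBO3 at 0.38. VEGFC lay nearest to ERRFI1, a feedback inhibitor of EGFR, at 0.19, to FMN1 at 0.21 and to UBALD2 at 0.23. VEGFB, which varied little, had many near genes, the first being HRAS, BACE1 and GNAQ at 0.02 to 0.03. These distances describe 4 libraries and say nothing of shared control.

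Around the 8 factors, 95 further genes of 10 lists (receptors, other ligands and inhibitors of angiogenesis, and hypoxia and PPAR genes) were looked up, of which 85 were in the table. Of the 95, 14 were hypoxia regulators and targets and 8 were PPAR receptors and targets, not all of them angiogenesis genes. With NBT, 4 of 84 tested were called lower and 4 higher, beside 1.01% and 1.6% of all tested genes. With trametinib 6 of 82 were called lower and 6 higher, beside 2.15% and 3.82%. With the combination 11 of 82 were called lower and 6 higher, beside 3.69% and 4.73%. The median log2 fold changes of these genes were -0.15, -0.01 and -0.24, against -0.01, 0.08 and 0.05 over all tested genes.

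Of the VEGF receptors and coreceptors, KDR was looked up but was not in the table. Of the 4 tested, 2 were called lower with the combination, beside 3.69% of all genes. NRP1, a coreceptor of VEGFA, had 1765 reads in the control, 1734 under NBT, 942 under trametinib and 709 under both drugs, a log2 fold change of -1.38 with the combination. NRP2, the coreceptor of VEGFC, had 215, 148, 159 and 101 reads (-1.15). FLT1 had 5, 21, 13 and 14 reads, above control in every treated library, and was called higher with NBT alone. The order of NRP1 was thus that of the libraries with and without trametinib.

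Among the other growth factors, TGFA, a ligand of EGFR, had 1462, 1544, 490 and 456 reads and fell with trametinib (-1.59) and the combination (-1.74). PDGFB, which recruits pericytes to vessels, had 910, 487, 620 and 330 reads and was called lower with the combination alone (-1.52). In the FGF list, the ligand FGF1 rose from 79 to 609 reads with trametinib (2.93), with 47 reads with NBT and 77 with the combination. The receptor FGFR3 had 211, 99, 652 and 121 reads, lower with NBT (-1.14) and higher with trametinib (1.61). FGF1 and FGFR3 were thus high in the trametinib library alone. FGF2 had 840, 1292, 616 and 1529 reads and did not pass the limits against control.

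In the apelin list, only APELA was in the table, at 5, 3, 2 and 4 reads. Of 5 thrombospondins and receptors tested, THBS3 alone was called, with 158, 268, 270 and 550 reads. With the combination its log2 fold change was 1.73, where 4.73% of all tested genes were called higher. THBS3 is a thrombospondin like THBS1 and lacks its inhibitory repeats, and here it stood highest where THBS1 stood lowest. The angiopoietin list had 0 to 28 reads a gene, most of its genes at or under the floor of 3 reads in every library, and none was called in the 3 comparisons with control, where this depth allows little to be seen.

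Of the angiogenic cytokines and peptides, the chemokine CXCL2 had 23 reads in the control, 96 under NBT, 43 under trametinib and 594 under both drugs, and rose by 1.99 (NBT) and 4.60 (combination) on the log2 scale. ANG, the ribonuclease angiogenin, had 16, 56, 70 and 111 reads and rose with trametinib (2.08), NBT (1.73) and the combination (2.69). IL6 had 130, 50, 129 and 114 reads and fell with NBT (-1.42). The matrix proteins CCN1 and CCN2, both known targets of YAP, were lower with the combination at -1.17 and -2.23, and CCN2 also with trametinib at -1.57.

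Of the secreted inhibitors of angiogenesis, 4 of 14 tested were called lower with the combination and 0 higher, where 3.69% of all genes were called lower. TIMP1, an inhibitor of matrix proteases, had 4280, 3788, 1868 and 1365 reads and fell with trametinib (-1.21) and the combination (-1.71). SEMA3A, which competes with VEGFA for NRP1, had 1073, 843, 810 and 536 reads (-1.06 with the combination). SEMA3F rose with trametinib from 70 to 152 reads (1.10).

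Of 13 hypoxia regulators and targets, the carbonic anhydrase CA9 had 340, 163, 348 and 102 reads and was called lower with NBT (-1.11) and the combination (-1.79). NDRG1, another known hypoxia target, had 2157, 4832, 3142 and 7775 reads and was called higher with NBT (1.11) and the combination (1.79). These hypoxia genes thus lay on opposite sides of control in the same libraries. With trametinib 0 of 13 passed the limits, beside 2.15% of all tested genes called lower and 3.82% higher. None of the PPAR receptors and targets was called in the 3 comparisons with control. In these, 1.01% to 3.69% of all tested genes were called lower and 1.6% to 4.73% higher.

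**Figure D5:**
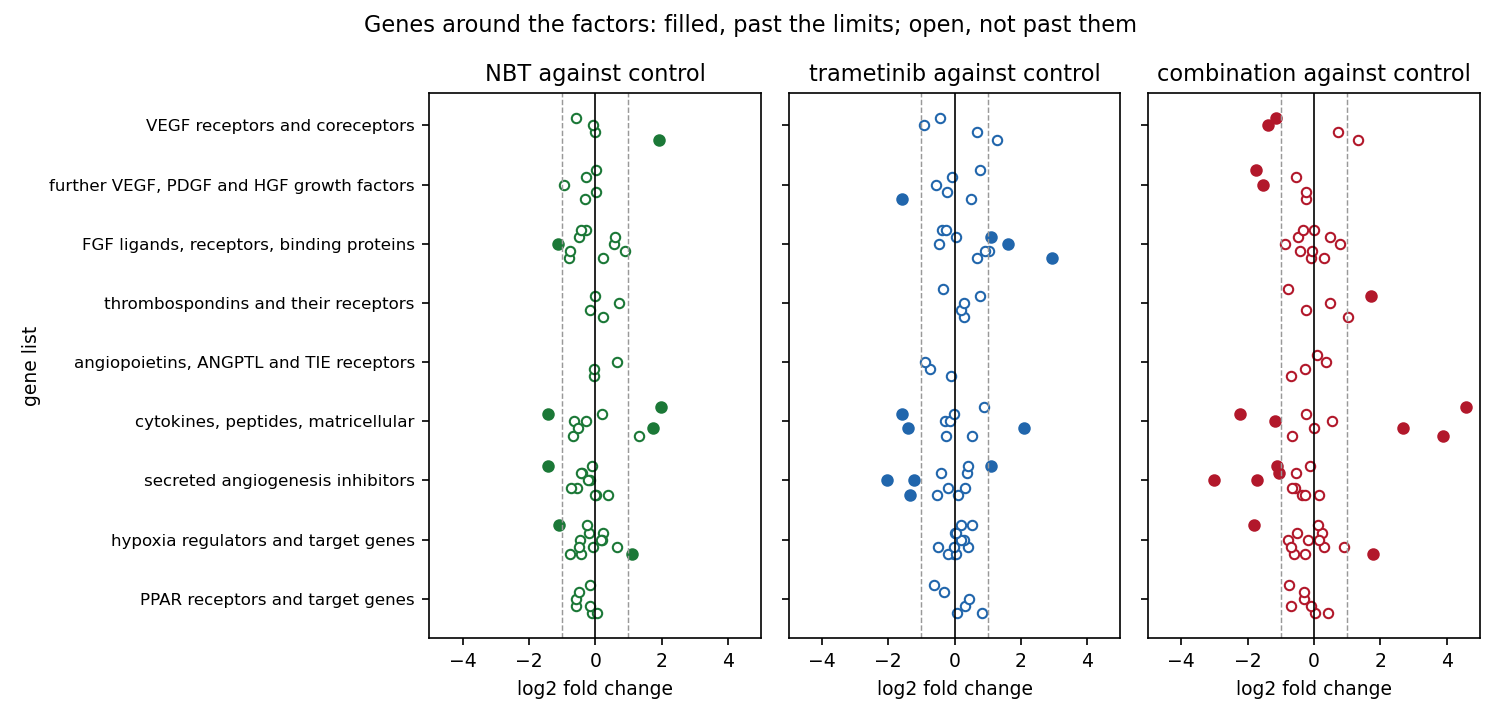
Log2 fold change against control of the genes around the factors, 1 point per gene with more than 3 reads in both libraries, by list, for NBT, trametinib and the combination. Filled points passed the limits, dashed lines mark log2 values of -1 and 1, and CXCL2 at 4.60 with the combination is the highest point.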

How the data were processed

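RNA of 4 MIA PaCa-2 libraries was sequenced on the BGISEQ-500 platform. For each gene and transcript the authors deposited an estimated (expected) count, which is not normalized, and length-scaled TPM and FPKM values. The submitters' processing notes name Bowtie2 2.2.5, RSEM 1.2.8 and hg38, without their roles. Libraries were grouped by their treatment labels. The deposited estimated counts were rounded and scaled to each library's sum, and log2 fold changes were computed with 0.5 reads added. Each ratio of 2 counts has an exact 95% (Clopper-Pearson) interval, which covers counting error only. The floor was 3 reads. With 1 library per condition no p-value is given. The steps that call genes were tested on simulated data drawn with counting error only. That test held no variation between cultures and so cannot show how the calls fare with it. The 8 genes and all lists were chosen with earlier results of these data known. Named genes were the 8, the list genes called against control with at least 100 reads in the higher library, all markers, and the 3 nearest genes of each factor with at least 100 control reads. Some genes that met this rule are not reported here. FLT1, APELA and FGF2 were named outside this rule after their values were seen. VEGFA transcripts were matched to GENCODE 29. Software was Python 3.11.15 (numpy 2.4.6, pandas 2.3.3, scipy 1.17.1, matplotlib 3.10.9) and R 4.3.3 (DESeq2 1.42.0, edgeR 4.0.16). Alternatives were TMM and median-of-ratios scaling, TPM with a pseudocount of 0.1, 5 added reads, summed transcript counts, a minimum of 10 reads, edgeR's exact test with an assumed coefficient of variation between cultures (0.2 or 0.4), and log2 limits of 2 or none.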

Additional observations from a re-analysis of the deposited data

How the results depend on the processing

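TMM and median-of-ratios scaling, TPM, 5 added reads and summed transcript counts left 172 recomputed log2 fold changes of the factors within their counting intervals, moved 3 beyond them and reversed no called one. The 3 were of THBS1, at -1.30 from TPM with NBT and at -1.94 (TMM) and -1.93 (median of ratios) with trametinib. VEGFB in the combination against NBT, which was not called, ranged from -0.055 to 0.0052. Limits on the spread between cultures had more effect, in the order NBT, trametinib and combination against control, then combination against trametinib and against NBT. At an assumed coefficient of variation of 0.2, 69, 365, 547, 302 and 204 genes were called, and at 0.4, 4, 22, 51, 14 and 13. At 0.4 the factors called were 0, 0, 2 (APLN and FGFBP1), 0 and 0. With a log2 limit of 2, 116, 352, 401, 252 and 251 genes were called, and the factors called were 3 with trametinib, 2 for the combination against trametinib and 2 against NBT. Without a log2 limit, 5635, 6915, 8056, 7428 and 6079 genes were called, and 6 factors with NBT and 7 with the combination against control. By estimated reads in place of TPM, the share of XM_011521971.2 in THBS1 was 85.1%, 86.5%, 85.6% and 85.0%, and that of NM_001287044.2 in VEGFA 37.8%, 47.6%, 56.1% and 53.1%, in the order control, NBT, trametinib and combination. The transcripts differ in length, which TPM divides out. No paired analysis was possible because each condition has 1 library, and for the same reason no library could be left out. Depth limits PGF, with 7 and 8 reads in the libraries with trametinib, APLN with 8 reads in the combination, and ANGPTL4 at or under the floor throughout.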
